A study of Mus musculus with 21 samples.

Results

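The first 3 days of primary culture of mouse fat stromal cells were examined by setting the 3 libraries of day 3 against the 3 libraries of day 0, which are 6 of the 21 libraries of a time course. The course also holds days 7, 14, 21 and 28 and a passaged group, and the question it addresses, per the design text, is how gene expression changes with time in culture. The day 3 group (P0_day3) was stromal vascular fraction of inguinal subcutaneous fat that had been on uncoated culture plastic for 3 days, in Iscove's medium with fetal bovine serum, glutamine, antibiotics and 2-mercaptoethanol, plated at 5000 live cells per cm2. The day 0 group (P0_day0) was the same fraction at day 0 of primary culture. Both groups came from female C57BL/6J mice aged 8 to 12 weeks, with no genetic change and no drug treatment named in the labels. In both, the lymph nodes had been removed, the fat had been digested with a tumour dissociation enzyme kit, and red cells had been lysed. The sources used here do not give how many mice stand behind a library, whether the libraries of a group came from separate mice, or whether the day 0 cells had touched the plate. The p-values below come from a fit of all 21 libraries in 7 groups. They therefore measure the spread between libraries within all these groups, not within day 3 and day 0 alone, and it may be technical.

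The stromal vascular fraction is what remains of digested fat once the floating adipocytes are taken off: mesenchymal progenitors and fibroblasts, endothelial and mural cells, and immune cells. When it is plated, adherent mesenchymal cells spread, form stress fibres and focal adhesions, and enter the cell cycle, while other cell types may attach poorly. Immediate-early genes are transcription factors and regulators that are transcribed within minutes to hours of a stimulus without new protein synthesis, and their messages are short-lived.

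The libraries held 2924193 to 3475969 reads in gene models above the detection floor at day 3 and 2676934 to 3878393 at day 0. Values are given as levels, meaning reads times a factor per library, in scaled reads; they are not divided by gene length, so levels are compared between groups and not between genes. A level of 30 is the floor for weakly detected genes and 16 the floor for genes with no read. Between 5401 and 5576 gene models exceeded 30 in a day 3 library and between 7387 and 7408 in a day 0 library. The floor lay at 26.3 to 33.3 reads in day 3 libraries and at up to 24.6 reads in day 0 libraries, and levels above it had sums of 3.12 to 3.33 (in units of 1e6) in day 3 libraries and 4.47 to 4.74 in day 0 libraries. Across the tested gene models, Pearson's r between libraries was 0.96 to 0.961 within day 3, 0.945 to 0.948 within day 0 and 0.796 to 0.811 between the days, given as a description. The part that floor and scaling have in the differences was tested only through the other scalings reported below.

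Symbols were supported in only part of the deposited table. In 4 stretches of chromosomes 4, 6, 9 and 15, 436 of 535 protein-coding genes (81.5%) exceeded the floor in 1 or more libraries, while outside them 6870 of 15656 (43.9%) did. Of the cytosolic ribosomal protein genes, which every cell expresses, 2 of 2 exceeded it inside these stretches and 18 of 58 (31.0%) outside them. All 13 mitochondrially encoded protein genes exceeded the floor. Genes are therefore named only from these stretches and from the mitochondrial genome, 548 in all, and every other gene model serves only in counts. The usual markers that define fibroblasts, endothelium or leukocytes lie outside these stretches and were not read, so the labelled cell type was checked only through the few markers that lie inside. Col1a2, the fibroblast collagen chain, was detected in all 6 libraries.

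Of 7767 gene models tested with limma over all 21 libraries, 843 (10.9%) were higher and 3149 (40.5%) lower at day 3 than at day 0, at a Benjamini-Hochberg adjusted p under 0.05. The median log2 difference (day 3 minus day 0) of all tested gene models was −0.42. The balance of the directions depended on the scaling between libraries. Quantile normalization gave 1947 higher and 1660 lower calls (46.4% called in all). With library medians made equal there were 1473 higher and 2301 lower calls (48.6%), and with equal summed levels 2181 higher and 1776 lower calls (50.9%). Over the 3172 gene models that no library had on a floor, the median difference was −0.26 as deposited, 0.24 after quantile normalization, 0.05 after median scaling and 0.26 at equal sums. Differences below are those of the deposited scale, and the scalings differ by more than the smallest called falls. In this bulk RNA, fewer cells of a type and less RNA per cell cannot be told apart.

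Of the 417 nuclear genes with a supported symbol that were tested, 101 were called higher (background 10.9%) and 154 lower (background 40.5%), and 162 were not called. Their median log2 difference was −0.095, against −0.42 over all tested gene models. All 101 higher calls were also made under the 3 other scalings, as were 103 of the 154 lower calls. Because both sets were called on the same libraries, a lack of overlap in them was largely fixed in advance. The libraries of the days did not overlap in any of the 101 (background 13.5% of tested gene models, called or not, with all day 3 libraries on top) or in 151 of the 154 (background 45.8% with all day 3 libraries below). By at least 2 log2 units 46 of these genes fell and 18 rose, against 635 falls and 126 rises among all 7767 tested gene models. By at least 3 units 18 fell and 6 rose, against 218 and 31 among all. Above the floor in all 3 day 3 libraries and in no day 0 library were 10 of these genes, and 17 showed the reverse; among all tested gene models there were 132 and 1041. The lists of genes below are given beside the shares of all tested gene models called, 10.9% higher and 40.5% lower. Members of the nuclear lists come from the 417 supported genes, of which 24.2% were called higher and 36.9% lower. A list's share is to be read against these shares as well, so one near 24.2% higher does not stand out. Where a list's counts change with the scaling, those under quantile normalization, median scaling and equal sums are given in that order.

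**Figure D1:**
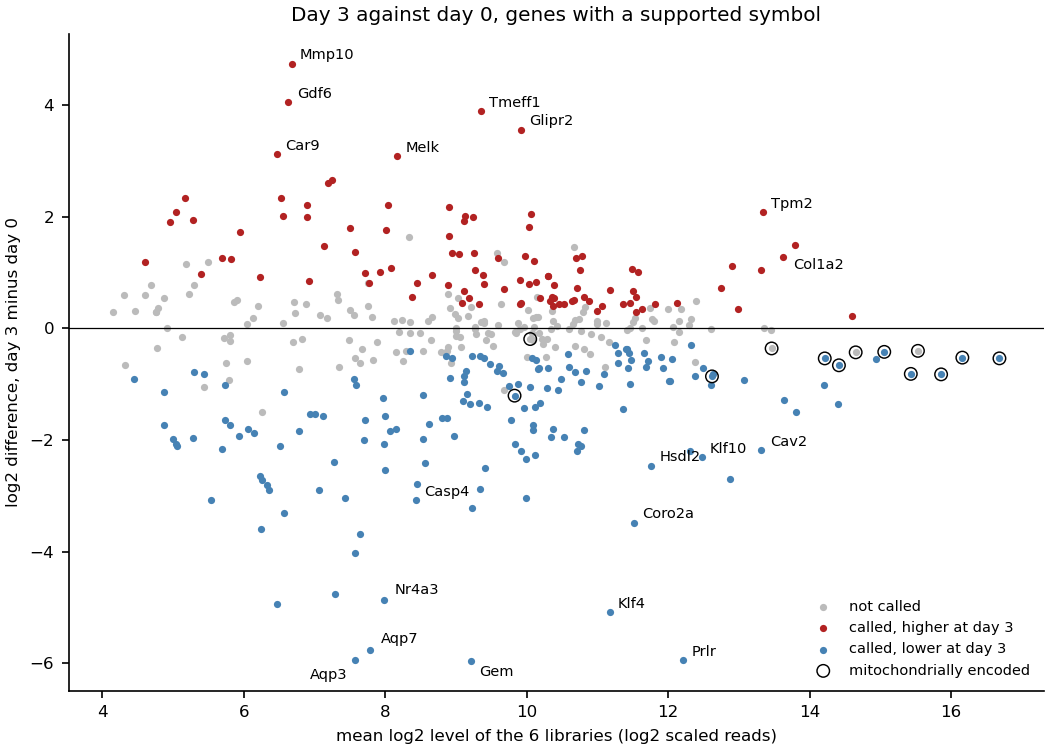
Log2 difference (day 3 minus day 0, vertical axis) against the mean log2 level of the 6 libraries (horizontal axis) for tested genes with a supported symbol. Each point is a gene, red if called higher at day 3, blue if called lower and grey if not called, and rings mark mitochondrially encoded genes. The falls of Gem, Aqp3, Prlr, Aqp7, Klf4 and Nr4a3 lie near or beyond −5, farther from 0 than the rise of Mmp10 at 4.75.

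All 4 immediate-early genes with a supported symbol fell by day 3, with a list median of −4.98 on the log2 scale. Klf4, a zinc finger transcription factor, had levels of 328, 385 and 493 at day 3, against 12454, 13426 and 14610 at day 0. It was thus 34.0-fold lower at day 3, and each day 0 library lay far above every day 3 library (log2 difference −5.09, with a standard error, SE, of 0.19 from the fit, adjusted p = 7.72e-13). Gem, a small GTPase that inhibits voltage-gated calcium channels, had levels of 87, 84 and 58 at day 3, against 4395, 4865 and 4779 at day 0. That 62.4-fold fall was the largest fitted among the named genes (log2 difference −5.96, SE 0.37, adjusted p = 6.38e-10). Nr4a3, an orphan nuclear receptor, had 37, 92 and 30 at day 3, the last on the floor, against 1194, 1418 and 1525 at day 0, so it was at least 29.3-fold lower. Klf10, a transcription factor known as an early target of TGF-beta, kept a sizeable level, with 2636, 2598 and 2468 at day 3 and 13960, 12212 and 11913 at day 0. Its fall was 4.94-fold (adjusted p = 4.36e-12). The 4 falls were called under all scalings and without each library.

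The promoters of Klf4 and Nr4a3 are shown because the pair fell together by about 5 log2 units, and because cyclic AMP response elements are a known feature of immediate-early promoters. Windows of 300 bases, from 250 bases before the annotated start to 50 after it, were taken from RefSeq on build GRCm38.p6. Capitals mark the core site of the cyclic AMP response element, TGACG on either strand.
Klf4, chr4:55532426-55532725, minus strand: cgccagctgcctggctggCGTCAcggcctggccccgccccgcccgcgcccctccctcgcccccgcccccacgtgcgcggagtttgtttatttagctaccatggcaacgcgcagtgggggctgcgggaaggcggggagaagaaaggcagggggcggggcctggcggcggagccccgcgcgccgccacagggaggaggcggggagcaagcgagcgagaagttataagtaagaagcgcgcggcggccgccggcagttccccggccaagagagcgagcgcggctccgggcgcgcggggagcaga
Nr4a3, chr4:48045055-48045354, plus strand: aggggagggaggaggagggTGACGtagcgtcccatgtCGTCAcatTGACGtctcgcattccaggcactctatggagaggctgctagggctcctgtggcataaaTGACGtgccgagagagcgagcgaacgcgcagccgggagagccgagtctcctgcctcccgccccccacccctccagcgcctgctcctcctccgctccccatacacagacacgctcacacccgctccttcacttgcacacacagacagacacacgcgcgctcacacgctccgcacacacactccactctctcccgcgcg
The window of Nr4a3 holds 4 core sites, between 231 and 147 bases before the start, and that of Klf4 holds 1, at 232 bases before it. Of 32817 promoter windows in the table, 20.8% hold at least 1 core site. Both windows were also searched for the AP-1 site (TGANTCA) and for the CArG box (CC, a run of A or T, GG), and neither holds any. Of all windows, 7.81% hold the first and 1.63% the second. The windows of Gem and Klf10 were not read. A match is a run of letters, and whether a factor binds there was not measured.

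Of 7 tested cell cycle and chromosome genes, 4 rose (57.1%, against 10.9% of all tested gene models), none fell and 3 were not called (median log2 difference 0.85). Under the other scalings 4, 4 and 6 were higher and none lower. Melk, a kinase of dividing cells, had levels of 905, 728 and 901 at day 3, against 51, 140 and 134 at day 0, an 8.52-fold rise (log2 difference 3.09, SE 0.33, adjusted p = 6.43e-07). Smc2, a core subunit of the condensin complex that compacts mitotic chromosomes, had 2471, 2037 and 2053 at day 3 and 698, 518 and 400 at day 0, a 4.15-fold rise. Ccne2, the cyclin E2 that drives entry into S phase, had 667, 760 and 967 at day 3 and 327, 327 and 272 at day 0. That is a 2.56-fold rise; its exons overlap those of Ints8, and the library kit does not mark strand. In all 3 genes the groups were apart. The fourth, Arhgef39, an exchange factor for small GTPases, rose 1.80-fold (adjusted p = 0.0432) but was not called without day 0 replicate 1 (0.0938), day 0 replicate 3 (0.133), day 3 replicate 1 (0.129) or day 3 replicate 3 (0.12), each an adjusted p.

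The promoter of Smc2 is shown because the cell cycle homology region, read here as TTTGAA on either strand, is a known element of genes switched on late in the cell cycle. Capitals mark it.
Smc2, chr4:52438971-52439270, plus strand: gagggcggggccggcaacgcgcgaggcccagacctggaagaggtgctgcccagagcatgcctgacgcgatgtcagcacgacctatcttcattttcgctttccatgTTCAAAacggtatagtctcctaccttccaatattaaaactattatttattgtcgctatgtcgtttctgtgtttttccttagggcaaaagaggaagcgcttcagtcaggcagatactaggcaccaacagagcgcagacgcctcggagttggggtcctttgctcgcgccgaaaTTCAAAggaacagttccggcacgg
It has 2 matches, 145 bases before and 26 bases after the start, and 17.9% of all windows hold at least 1. In the window of Melk these letters do not occur.

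Of 11 tested DNA repair genes, 3 rose (27.3%), 2 fell (18.2%, against 40.5% of all tested gene models) and 6 were not called, with a median of 0.02. The share that rose lay near the 24.2% of nuclear genes with a supported symbol and does not stand out. Falls were called on the deposited scale only: under the other scalings 5, 5 and 6 were higher and none lower. Rad54b, a helicase-like protein of homologous recombination, had 221, 269 and 283 at day 3 and 41, 37 and 110 at day 0, a 4.66-fold rise (adjusted p = 0.000262), though it overlaps Fsbp. Rad1, a member of the checkpoint clamp at damaged DNA, had 404, 312 and 329 at day 3 and 148, 154 and 220 at day 0. Mms22l, which acts in recombination at stalled forks, rose 1.95-fold (adjusted p = 0.00642). The falls of Nbn (1.44-fold) and Xpa (1.33-fold) were called on the deposited scale but under none of the 3 other scalings, where Xpa lay above 0 in a pair of them. With each library left out in turn, Nbn stayed called, and Xpa was called only without day 3 replicate 1 (otherwise adjusted p = 0.0511 to 0.125).

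The largest nuclear list joined cytoskeleton, adhesion and Hippo pathway genes. Of its 17 genes, 8 rose (47.1%, against 10.9% of all tested gene models and 24.2% of nuclear genes with a supported symbol). Of the rest, 4 fell and 5 were not called, and the median of the list was 0.56. Under the other scalings 11, 10 and 12 were higher and 3 lower in each. Tpm2, the beta tropomyosin of actin filaments, had levels of 21777, 21039 and 21395 at day 3, against 4715, 4481 and 6056 at day 0. The 4.25-fold rise had one of the lowest adjusted p-values of all upward calls on named genes (2.88e-10). Tln1, the talin that links integrins to actin, had 14397, 15734 and 13849 at day 3 and 6940, 7115 and 7121 at day 0, a 2.07-fold rise. Tln1 overlaps Creb3, whose levels moved alike (4294, 4321 and 4365 at day 3, and 2138, 2100 and 2235 at day 0), so the pair is not independent. Among cell-cell adhesion cadherins, Cdh10 had 366, 402 and 384 at day 3 and 74, 43 and 70 at day 0, and Cdh6 rose 2.58-fold. Basp1, a membrane protein that organises cortical actin, rose 2.48-fold, Rai14 1.91-fold, Trio, an exchange factor for small GTPases, 1.75-fold, and Tes, a focal adhesion protein, 1.65-fold.

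The caveolins went down while tropomyosin and talin went up. Cav1, the main coat protein of caveolae, had 8550, 8723 and 8452 at day 3 and 24705, 24075 and 23796 at day 0. Cav2, its partner, had 4938, 4731 and 4713 at day 3 and 22506, 22711 and 20192 at day 0, a 4.54-fold fall (log2 difference −2.18, SE 0.12, adjusted p = 2.25e-10). Libraries within a group differed little and the groups were far apart in both genes. Wasl, which starts branched actin through Arp2/3, fell 2.04-fold. Cav1 is also abundant in endothelium and adipocytes, most of whose other listed markers fell too, and their part in this result was not tested. The fourth fall of the list, Myo10, a motor of filopodia (1.22-fold), was called under none of the other scalings. It lost its call (adjusted p 0.0518 to 0.144) without each single library other than day 3 replicate 2.

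Of 9 matrix genes, 3 rose (33.3%, against 10.9% of all tested gene models), 5 fell (55.6%, against 40.5%) and 1 was not called, and under each other scaling 4 were higher and 4 lower. Among nuclear genes with a supported symbol, 24.2% rose and 36.9% fell. Col1a2, a chain of the fibrillar type I collagen, had 18451, 22009 and 18691 at day 3 and 8508, 7458 and 8296 at day 0, a 2.43-fold rise (log2 difference 1.28, SE 0.12, adjusted p = 6.63e-08). Svep1, a large adhesion protein of the matrix, had 374, 583 and 497 at day 3 and 153, 154 and 117 at day 0, and Tfpi2, a Kunitz inhibitor of serine proteases, had 1103, 1212 and 1079 at day 3 and 297, 281 and 258 at day 0. Col15a1, a collagen of basement membrane zones, had 79, 179 and 117 at day 3 and 355, 252 and 560 at day 0. Col28a1 was at least 4.33-fold lower, with 1 day 3 library on the floor. Thsd7a fell 3.94-fold and Reck, a membrane inhibitor of metalloproteinases, 3.56-fold, while the fall of Matn2 (2.02-fold) was called under none of the other scalings.

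Of 8 tested metalloproteinases and relatives, 3 rose (37.5%, against 10.9% of all tested gene models), none fell and 5 were not called. At equal sums 4 were higher. Mmp10, stromelysin 2, had the largest rise of any named gene. Its levels were 517, 637 and 454 at day 3, while at day 0 it sat on the floors (16, 16 and 30), so it was at least 17.7-fold higher (fitted log2 difference 4.75, SE 0.32, adjusted p = 1.84e-09). Mmp16, a membrane-anchored metalloproteinase, had 64, 96 and 88 at day 3 and no read in any day 0 library (16 in each), at least 2.71-fold higher. Adamts12 rose 1.94-fold. Mmp3, stromelysin 1 and the neighbour of Mmp10 in the cluster on chromosome 9, was not called, with 637, 612 and 441 at day 3 and 471, 551 and 385 at day 0 (log2 difference 0.26, SE 0.36, adjusted p = 0.573).

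The Mmp10 promoter is shown because AP-1 sites are a known feature of stromelysin promoters. Capitals mark TGANTCA, the AP-1 site.
Mmp10, chr9:7502092-7502391, plus strand: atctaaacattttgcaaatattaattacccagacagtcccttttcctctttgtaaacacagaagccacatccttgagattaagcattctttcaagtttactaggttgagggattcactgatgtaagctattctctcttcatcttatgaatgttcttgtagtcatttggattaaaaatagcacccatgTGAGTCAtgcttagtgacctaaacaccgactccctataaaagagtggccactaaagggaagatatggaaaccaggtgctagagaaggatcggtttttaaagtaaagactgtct
It holds 1 AP-1 site at 63 bases and a TATA box (TATAAA) at 29 bases before the start. Of all windows, 7.81% hold an AP-1 site and 13.6% a TATA box.

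**Figure D2:**
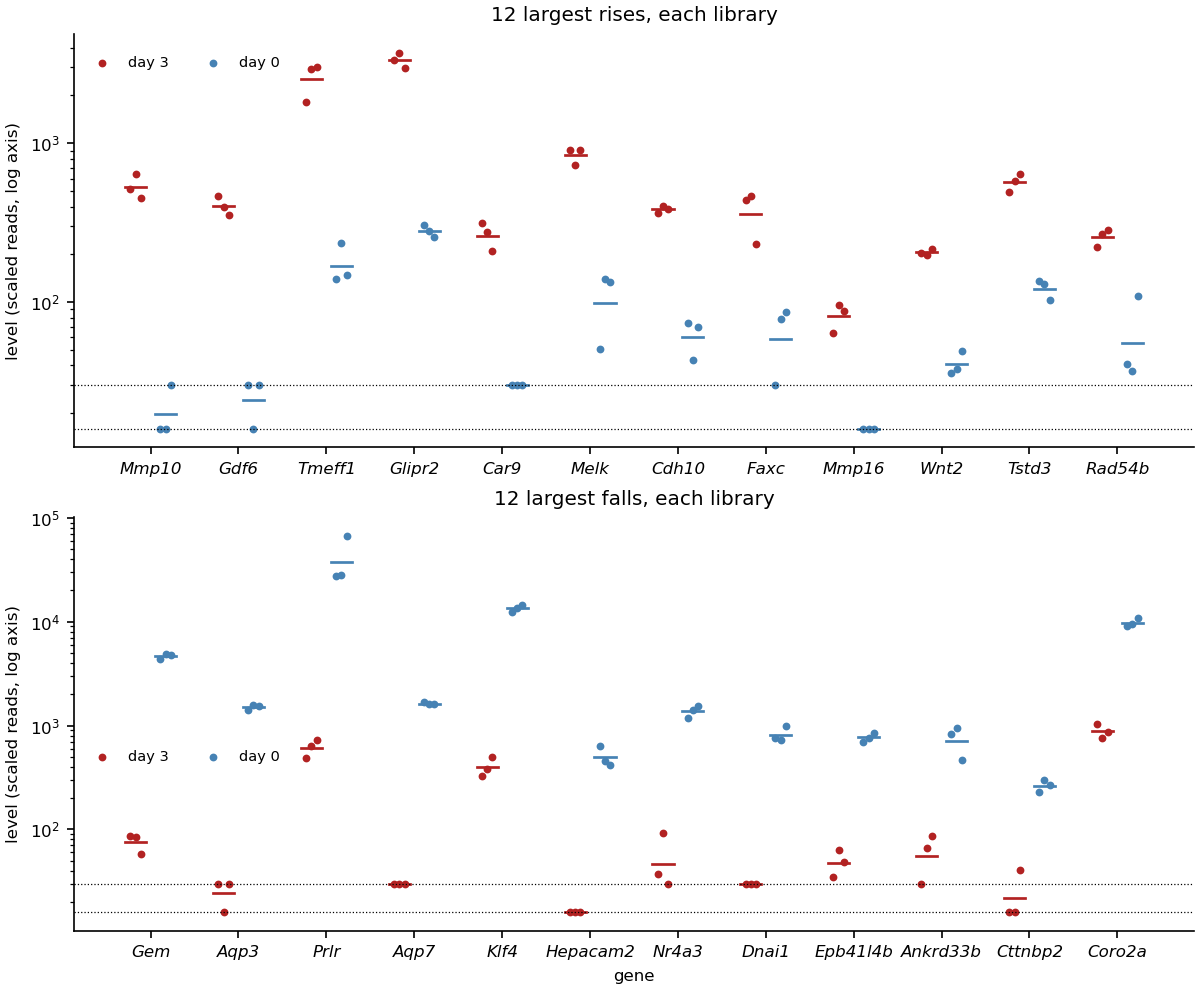
Level in every library (points, log axis, scaled reads) of the 12 largest rises and the 12 largest falls among called genes with a supported symbol and groups that do not overlap, day 3 in red left of day 0 in blue. Bars are geometric means of 3 libraries and dotted lines the floors at 16 and 30. The day 0 values of Mmp10, Gdf6, Car9 and Mmp16 lie on the floors.

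Among 9 tested secreted ligands, 4 rose (44.4%, against 10.9% of all tested gene models) and 3 fell (33.3%, against 40.5%). The share that fell lay near the 36.9% of nuclear genes with a supported symbol. Gdf6, a bone morphogenetic protein of skeletal and mesenchymal development, had 467, 395 and 356 at day 3 and was on the floors at day 0 (30, 16 and 30), at least 13.5-fold higher (adjusted p = 1e-09). Wnt2 had 205, 198 and 217 at day 3 and 36, 38 and 49 at day 0, a 5.07-fold rise. Fam3c, a secreted cytokine-like protein, had 11140, 11619 and 10982 at day 3 and 5040, 5335 and 5190 at day 0. C1qtnf3, an adipokine of the C1q family, was at least 3.33-fold higher. Penk, the precursor of enkephalins, went down, with 78, 58 and 48 at day 3 and 529, 384 and 606 at day 0 (8.27-fold, with exons that overlap A830012C17Rik). Enho, the precursor of adropin, fell 7.37-fold and Lep, leptin, is described with the adipocyte genes.

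Of 12 receptors, 5 rose (41.7%, against 10.9% of all tested gene models), 2 fell (16.7%, against 40.5%) and 5 were not called. Under the other scalings 7, 8 and 8 were higher and 2 lower in each. Tmeff1, a transmembrane protein with follistatin-like domains, had 1817, 2944 and 2997 at day 3 and 140, 237 and 148 at day 0, a 14.9-fold rise. Lpar1, a receptor for lysophosphatidic acid, had 1172, 1158 and 919 at day 3 and 220, 294 and 353 at day 0, 3.79-fold higher. Npr3, the clearance receptor of natriuretic peptides, had 968, 855 and 743 at day 3 and 225, 199 and 440 at day 0, and the cannabinoid receptor Cnr1 was at least 3.99-fold higher. Tgfbr1, the type I receptor for TGF-beta, rose 1.24-fold. The hepatocyte growth factor receptor Met (log2 difference 0.37, adjusted p = 0.265) and the Hedgehog transducer Smo (0.29, adjusted p = 0.0875) were not called on the deposited scale. Both were called higher under quantile normalization (adjusted p = 0.03 for Met and 0.000129 for Smo). Il11ra1, the receptor for interleukin 11, fell 2.68-fold and overlaps Ccl27a.

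The largest fall among receptors was that of Prlr, the prolactin receptor of mammary epithelium and some fat cells. Its levels were 485, 628 and 731 at day 3, against 27341, 28296 and 66942 at day 0, 61.5-fold lower (log2 difference −5.94, SE 0.49, adjusted p = 2.07e-08). Day 0 replicate 3 stood above the other two, yet the groups were far apart. Inguinal fat of female mice holds the mammary gland, so epithelial genes were read as markers of another cell type. Of 8 tested, 6 fell (75.0%, against 40.5% of all tested gene models), 1 rose and 1 was not called (median −2.10), and under each other scaling 5 were lower. Their summed level was 3860 to 3999 at day 3 and 34966 to 74986 at day 0, a day 0 sum of which Prlr alone made up most. Aqp3, a water and glycerol channel, was on the floors at day 3 (30, 16 and 30) and had 1417, 1559 and 1526 at day 0, a log2 difference of −5.64 or beyond. Aqp3 passed the filter for testing through the day 0 libraries alone, so the direction of its call was fixed in advance. Epb41l4b had 35, 63 and 48 at day 3 and 701, 766 and 850 at day 0, and Pgr, the progesterone receptor, had 406, 538 and 415 at day 3 and 2136, 1830 and 2278 at day 0. Cdh17 was at least 2.11-fold lower.

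Not all epithelial genes went this way. Esrp1, an epithelial splicing regulator, had 2180, 2023 and 2126 at day 3 and 2345, 2715 and 2442 at day 0. Its groups did not overlap, but the difference was not called (log2 difference −0.24, SE 0.28, adjusted p = 0.49) and was above 0 under the other scalings. Grhl2, an epithelial transcription factor, fell 1.59-fold (adjusted p = 0.0305), a call made under none of the other scalings and lost without day 0 replicate 1 (adjusted p = 0.0582) or 2 (0.1) and without day 3 replicate 2 (0.0634) or 3 (0.0975). Cftr, a chloride channel, had 61, 124 and 42 at day 3 and no read in the day 0 libraries, at least 2.26-fold higher.

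Of 5 adipocyte genes, 4 fell (80.0%, against 40.5% of all tested gene models) and 1 rose, under each scaling. Aqp7, the glycerol channel of adipocytes and capillary endothelium, was at 30, the weak floor, in each day 3 library and at 1675, 1601 and 1597 at day 0, so it was at least 54.1-fold lower (adjusted p = 4.99e-12). Lep had no read at day 3 and levels of 87, 37 and 48 at day 0, at least 1.78-fold lower. Of the 21 libraries, only those of day 0 had Lep above the floor. It passed the filter for testing through them alone, so the direction of its call was fixed in advance. Hilpda, a lipid droplet protein, had 597, 544 and 667 at day 3 and 2043, 1850 and 2100 at day 0, and Enho had 259, 196 and 268 at day 3 and 1695, 1625 and 1975 at day 0, with a 3′ end that overlaps that of Dnai1. C1qtnf3, the exception, had 111, 108 and 118 at day 3 and 43, 30 and 30 at day 0. Summed over the 5 genes, the level was 848 to 1053 at day 3 and 5113 to 5720 at day 0. The part of adipocytes or epithelium in any other change was not tested.

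Endothelial genes all fell among the 3 tested (background 40.5% of all tested gene models): Gng11 (3.49-fold), Cav1 (2.82-fold) and Tspan12 (1.63-fold), the last not called under 1 of the other scalings. Their summed level, with the lymphatic chemokine Ccl21a on the floor at day 3, was 11391 to 11573 at day 3 and 29480 to 31147 at day 0. Cav1, which is not particular to endothelium, made up most of this sum on both days. Of 3 mural genes, Tpm2 rose, Trpc6, a cation channel, fell 8.22-fold (374, 321 and 373 at day 3, and 3130, 3124 and 2541 at day 0), and Arhgap42, an inhibitor of small GTPases in smooth muscle, was not called (2944, 2987 and 3136 at day 3, and 2875, 2707 and 2752 at day 0) but was called higher under all 3 other scalings. Their summed level, carried mostly by Tpm2 at day 3, was 24347 to 25095 at day 3 and 10312 to 11349 at day 0. Of 3 tested lymphocyte markers, 2 fell (66.7%, against 40.5% of all tested gene models) and 1 was not called. Cd72, a B cell surface receptor, was on the weak floor at day 3 and had 263, 162 and 259 at day 0, at least 7.42-fold lower. Exons of Cd72 overlap those of Tesk1. Tox was at least 3.48-fold lower, and the B cell factor Pax5 and the T cell adaptor Sit1 were on the floors in all 6 libraries. Summed lymphocyte markers were 60 to 153 at day 3 and 366 to 576 at day 0.

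Myeloid genes showed no common direction, with 2 of 7 higher (28.6%, against 10.9% of all tested gene models) and 2 lower (28.6%, against 40.5%). The other 3 were not called, and at equal sums 3 of the list were higher and 1 lower. The share that rose lay near the 24.2% of nuclear genes with a supported symbol. The summed level of the list was 2215 to 2660 at day 3 and 3238 to 3535 at day 0. Irf5, an interferon regulatory factor of macrophages, had 435, 375 and 373 at day 3 and 232, 125 and 222 at day 0, with exons that overlap Tnpo3. Tfec, a transcription factor of macrophages, was at least 1.96-fold higher, while Cd72, which is on this list too, was lower. Lyn, a Src family kinase of leukocytes, fell 1.72-fold, a call made under 2 of the 3 other scalings. Striated muscle genes, of interest because the study's title concerns cardiomyocyte differentiation, gave 1 call on the deposited scale: of 6 tested, Fhl5 fell, at least 2.24-fold, and 5 were not called. Fhl5 passed the filter for testing through the day 0 libraries alone, so the direction of its call was fixed in advance. The other scalings called 0, 1 and 3 of the muscle genes higher. On the deposited scale 1 was called higher in the fit of the 6 libraries alone, with the zero floor raised to the weak floor, without day 3 replicate 3 and with a filter at a level of 60, and that filter left no called fall. In the fit of the 6 libraries and without day 0 replicate 1, 2 were called lower. Lmod2, an actin nucleator of heart muscle, and Asb15 were on the floors in all 6 libraries.

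Of 12 innate immune and NF-kB genes, 3 rose (25.0%), 4 fell (33.3%, against 40.5% of all tested gene models) and 5 were not called. The share that rose lay near the 24.2% of nuclear genes with a supported symbol. The called falls were larger than the called rises. Under the other scalings 6, 4 and 6 were higher and 4 lower in each. Birc3, the ubiquitin ligase cIAP2 and a target of NF-kB, had 765, 918 and 801 at day 3 and 3526, 3566 and 3325 at day 0, a 4.20-fold fall (adjusted p = 2.63e-10). Its neighbour Birc2, cIAP1, had 675, 739 and 585 at day 3 and 2805, 2207 and 2666 at day 0. Casp4, the mouse caspase-11 that senses lipopolysaccharide, had 145, 140 and 84 at day 3 and 1021, 1057 and 938 at day 0, 8.40-fold lower. Trim14, an adaptor of antiviral signalling, fell 6.92-fold and overlaps Nans. The rises were smaller: Irf5 (2.11-fold), the RNA sensor Rigi (1.38-fold) and the kinase Ripk2 (1.37-fold).

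The calls on Rigi and Ripk2 were weak, and each was lost in several of the fits without 1 library. Rigi lost its call without day 0 replicates 1 (adjusted p = 0.0787) or 3 (0.093) and without day 3 replicates 1 (0.0877) or 2 (0.0706). Ripk2 lost it without day 0 replicates 1 (0.116) or 3 (0.06) and without day 3 replicate 2 (0.0974). In Map3k7, the kinase TAK1, the day 0 libraries disagreed: the levels were 2594, 2881 and 2658 at day 3 and 493, 947 and 2017 at day 0. It was not called with all libraries (log2 difference 1.47, SE 0.60, adjusted p = 0.0509) and was called higher without day 0 replicate 3 (1.99, adjusted p = 0.0172). Akirin2, a nuclear cofactor of NF-kB, had 1108, 1256 and 1309 at day 3 and 260, 402 and 1047 at day 0, and was likewise called only without that library among the 6 (1.92, adjusted p = 0.048, against 0.121 with all).

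Of 8 tested lipid genes, 4 fell (a share near the 40.5% of all tested gene models) and none rose on the deposited scale, while under each other scaling 2 were higher, with 3, 4 and 3 lower. Hsdl2, a peroxisomal dehydrogenase-like protein, had 1525, 1474 and 1444 at day 3 and 8293, 8206 and 7932 at day 0, a 5.50-fold fall (adjusted p = 4.36e-12). Abca1, which exports cholesterol, had 563, 568 and 406 at day 3 and 2759, 2004 and 2649 at day 0. Pon2 fell 1.64-fold, and Decr1, a mitochondrial enzyme of fatty acid oxidation, 1.63-fold, but the call on Decr1 was made under 1 of the 3 other scalings only. Pdk4, which restrains pyruvate oxidation, had 494, 453 and 392 at day 3 and 1969, 1827 and 1823 at day 0. Pon2 is listed with the redox genes and Pdk4 with the hypoxia-linked genes, and not all falls described here are in the count of the lipid list.

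Of the 3 genes listed as hypoxia-linked, Hilpda and Pdk4 fell and Car9 rose. Car9, a membrane carbonic anhydrase and a textbook target of HIF-1, had 314, 276 and 209 at day 3 and was on the weak floor in each day 0 library, at least 8.76-fold higher (adjusted p = 1.88e-06). It overlaps the predicted gene Gm12454. Its promoter is shown because the response element for HIF next to the start is its known control element. Capitals mark the core, ACGTG on either strand.
Car9, chr4:43506776-43507075, plus strand: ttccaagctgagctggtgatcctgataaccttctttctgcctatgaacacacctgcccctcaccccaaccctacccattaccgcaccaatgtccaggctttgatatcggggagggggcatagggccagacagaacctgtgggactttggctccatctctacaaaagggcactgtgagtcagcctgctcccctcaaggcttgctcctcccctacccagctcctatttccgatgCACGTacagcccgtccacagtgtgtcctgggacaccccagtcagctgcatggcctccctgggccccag
The core lies 18 bases before the start, and 19.6% of all windows hold at least 1 such core. Of the 3 genes, only Car9 rose, so the list has no common direction.

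Of 13 protein folding and endoplasmic reticulum genes, 7 rose (53.8%, against 10.9% of all tested gene models), 5 fell (a share near the 40.5% of all) and 1 was not called, with a median of 0.47. Under the other scalings 8, 8 and 9 were higher and 2 lower in each. Calu, a calcium-binding protein of the secretory pathway, had 23823, 24527 and 23081 at day 3 and 6405, 6647 and 14287 at day 0. Day 0 replicate 3 again lay apart from the other two, though below every day 3 library, and the rise was 2.81-fold (adjusted p = 6.97e-05). Alg2, an early enzyme of N-glycan assembly, rose 2.47-fold, Sec61b of the endoplasmic reticulum translocon 1.59-fold, and Ube2j1, of protein degradation at that membrane, 1.38-fold. The cytosolic chaperone partner Dnaja1 fell, with 13441, 13423 and 13067 at day 3 and 27277, 26778 and 26157 at day 0, and Asph, a hydroxylase of that membrane, fell 1.92-fold; exons of both overlap other genes, Smu1 and Clvs1. The falls of Erp44 (1.23-fold), Dnajb5 (1.45-fold) and Pigo (1.41-fold) were called under none of the other scalings.

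Weak calls in this list were lost in several of the fits without 1 library. The rise of Vcp (1.16-fold) was called without day 0 replicate 2 or day 3 replicate 3 and not without any of the other 4 libraries (adjusted p = 0.0644 to 0.11). Dnajb5 kept its call only without day 0 replicate 2 (otherwise 0.0664 to 0.176), and Pigo only without day 0 replicate 3 or day 3 replicate 2 (otherwise 0.0526 to 0.0736).

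Genes of translation and amino acid supply were mixed on the deposited scale, with 5 of 14 higher, 3 lower (21.4%, against 40.5% of all) and 6 not called. Under the other scalings 8, 6 and 9 were higher and 0, 1 and 0 lower. Asns, asparagine synthetase and a target of the amino acid response, had 4025, 4470 and 3975 at day 3 and 1884, 1945 and 2136 at day 0, a 2.09-fold rise (adjusted p = 1.83e-09). Tars, the threonyl-tRNA synthetase, had 2527, 2557 and 2383 at day 3 and 1181, 1237 and 1171 at day 0. Pop1, a subunit of the RNases that process tRNA and ribosomal RNA, had 178, 188 and 203 at day 3 and 48, 65 and 33 at day 0. Polr1e, of RNA polymerase I, rose 1.71-fold and the mitochondrial ribosomal protein Mrpl50 1.37-fold. The falls, of Rps20 (1.46-fold), Rars2 (1.49-fold) and Mdn1 (1.55-fold), each missed the call under at least 2 of the 3 other scalings. Mdn1 also lost its call without day 0 replicates 1 (adjusted p = 0.121) or 3 (0.0702) and without day 3 replicates 1 (0.124) or 3 (0.0691).

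**Figure D3:**
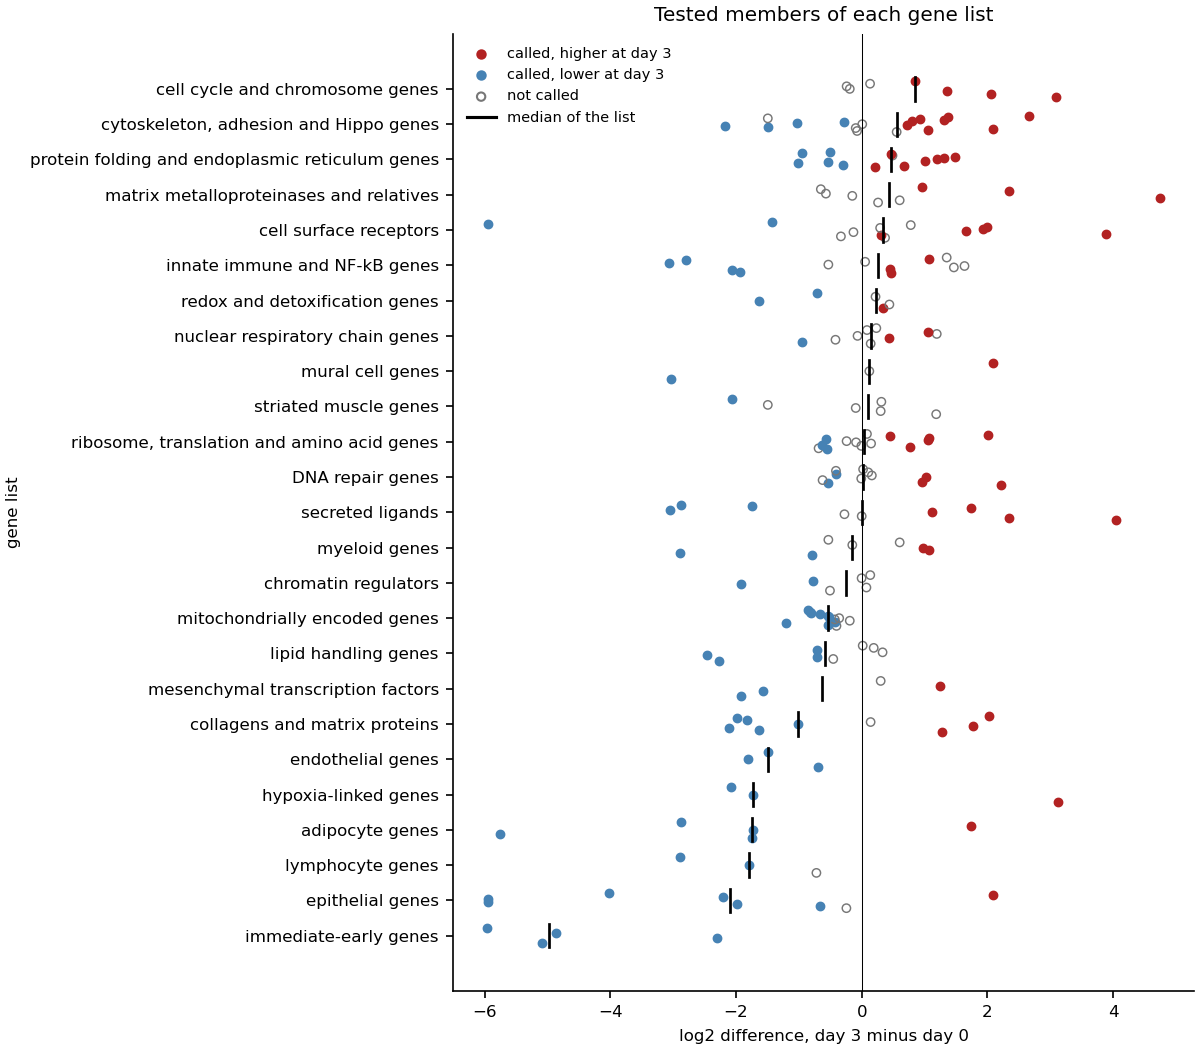
Log2 difference (day 3 minus day 0, horizontal axis) of the tested members of 25 gene lists (vertical axis), ordered by list median. Filled red points were called higher at day 3, filled blue points lower, open points not called, and black bars are list medians. The immediate-early list has the lowest median at −4.98 and the cell cycle list the highest at 0.85.

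Of 9 nuclear genes of the respiratory chain, 2 rose (22.2%, against 10.9% of all tested gene models), 1 fell (11.1%, against 40.5%) and 6 were not called, while 6, 4 and 6 were higher and 1 lower under each of the other scalings. The share that rose lay near the 24.2% of nuclear genes with a supported symbol. Coq3, of ubiquinone synthesis, had 932, 874 and 869 at day 3 and 432, 362 and 506 at day 0, a 2.07-fold rise. Ndufa4, a subunit associated with cytochrome oxidase, had 2860, 3130 and 3068 at day 3 and 5928, 5111 and 6523 at day 0, a 1.93-fold fall. The rise of Ndufaf4 (1.36-fold, adjusted p = 0.021) was lost without day 0 replicate 3 (0.0844) or day 3 replicate 2 (0.0912).

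The mitochondrially encoded genes were lower at day 3 on the deposited scale, 9 of 13 by the test (69.2%, against 40.5% of all tested gene models), with a median of −0.54 and a summed level of 325320 to 407605 at day 3 against 530846 to 564931 at day 0. Quantile normalization gave 4 higher and 2 lower, median scaling 0 and 5, and equal sums 1 and 4. Of the falls, only those of mt-Nd3 and mt-Atp8 were called under all 3 other scalings. mt-Nd3, a subunit of complex I, had 533, 613 and 658 at day 3 and 1205, 1274 and 1713 at day 0, 2.31-fold lower. mt-Atp8, of the ATP synthase, had 4159, 5105 and 4817 at day 3 and 7855, 9003 and 8635 at day 0, 1.81-fold lower. mt-Co3 and mt-Atp6, at 1.76-fold and 1.77-fold lower, were called under 2 of 3 scalings, and mt-Atp6 was higher under quantile normalization (0.34, adjusted p = 0.00685). mt-Co1, a core subunit of cytochrome oxidase, had 74829, 98250 and 91391 at day 3 and 124127, 130128 and 126805 at day 0, yet its difference was above 0, at 0.46, under quantile normalization (adjusted p = 0.00899). The subunits of complex I mt-Nd1, mt-Nd4l, mt-Nd5 and mt-Nd6 were not called (log2 difference −0.43 to −0.19) and were above 0 under quantile normalization and equal sums.

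Several of the mitochondrial calls were also lost in fits without 1 library. Without day 3 replicate 1, which had the lowest levels, the falls of mt-Co1 (adjusted p = 0.087), mt-Cytb (0.0677), mt-Nd2 (0.0985) and mt-Nd4 (0.171) were not called. mt-Nd2 was also lost without day 0 replicate 3 (0.0749), and mt-Nd4 kept its call only without day 3 replicate 2 (otherwise 0.0809 to 0.171). Without that library mt-Nd5 was called (−0.55, adjusted p = 0.0273, against 0.0509 with all).

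**Figure D4:**
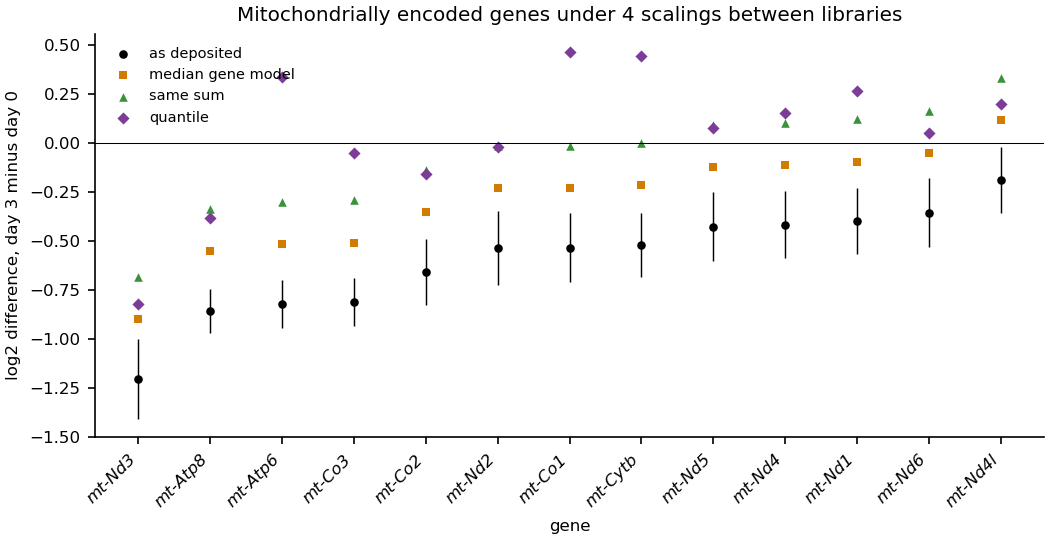
Log2 difference (day 3 minus day 0, vertical axis) of the 13 mitochondrially encoded genes (horizontal axis) under 4 scalings between libraries. Black circles with SE bars are the deposited scale, orange squares median scaling, green triangles equal sums and purple diamonds quantile normalization. mt-Nd3 lies below 0 under each, while mt-Co1 runs from −0.54 to 0.46.

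Of 4 regulators of mesenchymal fate, 1 rose, 2 fell and 1 was not called, and 2, 1 and 2 were higher under the other scalings. Dlx5, a homeobox gene of bone formation, had 74, 107 and 84 at day 3 and 39, 30 and 42 at day 0, at least 2.39-fold higher. Runx1t1, a corepressor, had 70, 89 and 84 at day 3 and 287, 192 and 248 at day 0, and Osr2, an odd-skipped factor of mesenchyme, was at least 3.79-fold lower. Among chromatin regulators 2 of 6 fell (33.3%, against 40.5% of all) and none rose on the deposited scale, while 2, 1 and 3 were higher and 1, 2 and 1 lower under the other scalings. Ing3, of a histone acetyltransferase complex, had 226, 295 and 255 at day 3 and 1028, 738 and 1218 at day 0, and Phf14 fell 1.70-fold, a call made under 1 of the other scalings. Of 5 redox genes, the thioredoxin Txn1 rose 1.27-fold, Grhpr, which reduces glyoxylate, fell 3.11-fold, Pon2 fell as above, and 2 were not called; under the other scalings 3, 2 and 3 were higher.

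Other genes among the largest changes belong to no list. Glipr2, a membrane protein of the Golgi, had 3353, 3721 and 2967 at day 3 and 305, 281 and 259 at day 0. Its 11.9-fold rise had the lowest adjusted p of the named genes (8.61e-15; log2 difference 3.57, SE 0.09). Faxc had 437, 464 and 231 at day 3 and 30, 78 and 87 at day 0, and Tstd3, which overlaps Ccnc and Usp45, rose 4.67-fold. Coro2a, a coronin that binds actin, had 1033, 754 and 869 at day 3 and 9124, 9581 and 10799 at day 0, 11.2-fold lower. Hepacam2, an adhesion protein, had no read at day 3 and 634, 451 and 420 at day 0, at least 16.4-fold lower. Like Aqp3, Lep and Fhl5, Hepacam2 passed the filter for testing through the day 0 libraries alone. Dnai1, a dynein chain of motile cilia whose 3′ end overlaps that of Enho on the other strand, was on the weak floor at day 3 and had 755, 725 and 988 at day 0, at least 27.2-fold lower. Ankrd33b and Cttnbp2, the second a cortactin-binding protein, were at least 12.9-fold and 7.91-fold lower.

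Where day 3 stands in the whole course is given as geometric mean levels, as a description. No later group mean of Klf4 came near that of day 0: it was 13468 (day 0), 396 (day 3), 229 (day 7), 584 (day 14), 687 (day 21), 559 (day 28) and 355 (passaged). Melk was highest at day 3, with 99 (day 0), 840 (day 3), 414 (day 7), 227 (day 14), 77 (day 21), 67 (day 28) and 141 (passaged). Mmp10 also had its highest mean at day 3, with 20 (day 0), 531 (day 3), 384 (day 7), 71 (day 14), 50 (day 21), 47 (day 28) and 41 (passaged). The early rise of Col1a2 was a small part of its later one, with 8075 (day 0), 19652 (day 3), 72311 (day 7), 195791 (day 14), 155321 (day 21), 139367 (day 28) and 106806 (passaged). Esrp1 was at 2496 (day 0), 2108 (day 3), 933 (day 7), 61 (day 14), 36 (day 21), 30 (day 28) and 16 (passaged).

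**Figure D5:**
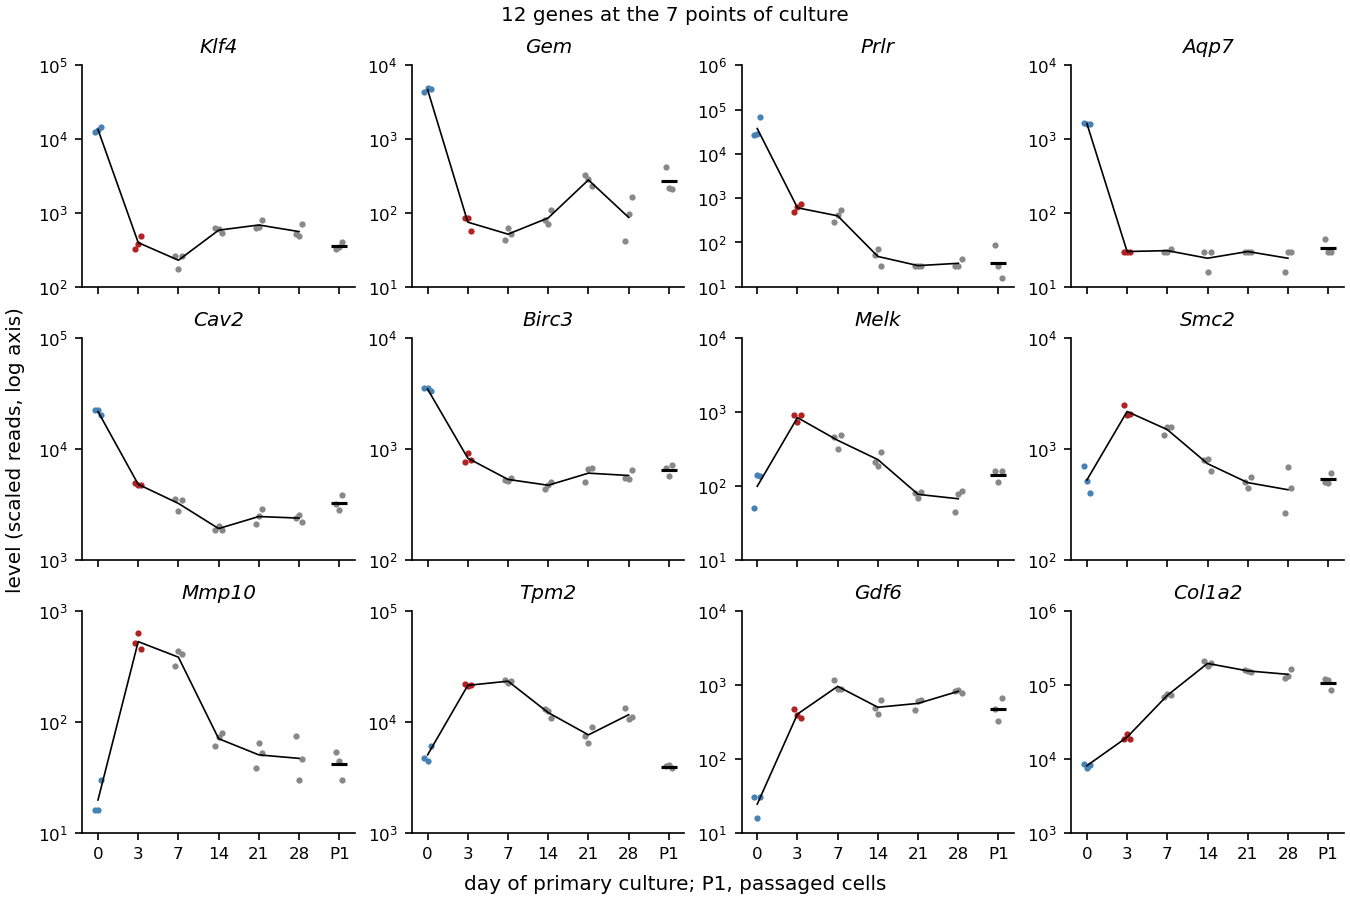
Level of 12 genes (log axis, scaled reads) in each library of the 6 days of primary culture and of passaged cells (P1), by time on the horizontal axis. Points are libraries, with day 0 blue, day 3 red and the others grey; lines join geometric means and the bar marks the passaged group. Klf4, Gem, Prlr, Aqp7, Cav2 and Birc3 are highest at day 0, Melk, Smc2 and Mmp10 have their highest mean at day 3, and Col1a2 at day 14.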

How the data were processed

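RNA of the stromal vascular fraction was amplified from 15 ng of total RNA with a SMART-Seq kit that does not mark strand, after extraction with either of 2 RNA kits, per the labels' protocols; the sources used here do not give which library had which kit. The genome build was GRCm39, per the submitters' processing notes. Aligner, counter, annotation and scaling: not given in the sources used here. What the authors deposited is a table of 30961 gene models by 21 libraries in log2 units, each gene model summing to 0. From the steps between the repeated lowest values, read as floors of 16 and 30, the library factors and the levels of 30466 gene models were recovered. In 3805 gene models on both floors, 100.00% of 13797 values from above the floor up to 200 were whole reads within 0.1 read. The absolute scale rests on this reading of the floors, while differences equal those of the deposited values. Reads under the floor are missing, so full depth is unknown and no counting interval or count test was computed.

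Gene models above 30 in at least 3 libraries were tested with limma 3.58.1 (trend, 7 groups, R 4.3.3) on the recovered log2 levels, with Benjamini-Hochberg adjustment over 7767 gene models. Fold changes are ratios of geometric means, and where a library of the lower group was on a floor the floor of 30 per library gives the bound written as "at least". The fit was tested on simulated data for this comparison (7767 gene models): it found 52 of 100 simulated differences of 1 log2 unit and 92 of 100 of 2 units, with 12 false calls. The simulated levels had normal noise, no floors and no shift of scale between groups, and few gene models were changed. These rates therefore need not hold for the deposited data. Genes named were the 12 largest rises and falls with groups that did not overlap, the 5 lowest adjusted p-values in each direction, and members of 25 lists. The genes, lists and comparison were chosen with earlier results of these data known. Symbols, exon overlaps and promoters came from GENCODE M21 and RefSeq, both on GRCm38, and no coordinate was converted. Overlaps are given above for some genes only. Exons of Col15a1, Coro2a, Cttnbp2, Npr3 and Tox, among others, also overlap other gene models. Alternatives were 3 other scalings, other filters, floors and fits, and each of the 6 libraries left out in turn; scaling to the same sum was added after the data were seen.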

Additional observations from a re-analysis of the deposited data

How the results depend on the processing

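Of 136 genes named or considered with values, 100 kept direction and call under every alternative, and all 136 kept their direction when any 1 library was left out. Over the 6 fits without 1 library, between 744 and 825 gene models were called higher and between 2834 and 3051 lower, and 15 genes lost a call in at least 1 of them. Calls in either direction numbered 5124 with no filter and 3254 with a filter at a level of 60, against 3992. The other scalings moved the balance of directions. Gene models called higher numbered 1947 under quantile normalization, 1473 after scaling to the median gene model and 2181 at equal sums, and those called lower 1660 under quantile normalization and 1776 at equal sums. Nuclear genes with a supported symbol called higher numbered 171 under quantile normalization and 190 at equal sums, against 101. The cause was not tested. The sign turned above 0 for several genes. Under quantile normalization these were Erp44 0.12, Esrp1 0.06, Myo10 0.04, Xpa 0.04, mt-Atp6 0.34, mt-Co1 0.46, mt-Cytb 0.44, mt-Nd1 0.26, mt-Nd4 0.15, mt-Nd4l 0.20, mt-Nd5 0.07 and mt-Nd6 0.05. After median scaling they were Erp44 0.01, Esrp1 0.06, Myo10 0.02 and mt-Nd4l 0.11. At equal sums they were Erp44 0.22, Esrp1 0.28, Myo10 0.23, Pigo 0.02, Xpa 0.11, mt-Nd1 0.12, mt-Nd4 0.10, mt-Nd4l 0.33, mt-Nd5 0.09 and mt-Nd6 0.16. With no filter 14 genes lost a call, and the fit of the 6 libraries alone lost 2 and gained 5, Esrp1 (adjusted p = 0.0368) among them.

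Same-numbered libraries of day 3 and day 0 did not deviate together (correlations −0.013, −0.066 and −0.005). This gave no sign of pairing but cannot exclude it, since noise between libraries could hide a shared origin. The sources used here do not give what the replicate number marks. With that number as a replicate block, 828 gene models were higher and 3133 lower, Arhgef39, Myo10, Xpa and mt-Nd4 lost their calls, and Map3k7 gained one (adjusted p = 0.0392). The floor, at 26.3 to 33.3 reads in day 3 libraries and up to 24.6 in day 0 libraries, limits how low a gene can be followed.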
